A study of Mus musculus with 6 samples.

Results

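The genes for the tubulins and for the enzymes that modify tubulin were followed in whole testis, comparing WT with Trf2-/- males aged 21 days. They were chosen by name among the protein-coding genes of the deposited table, as every gene whose symbol gave an alpha, beta, gamma, delta or epsilon tubulin, a tubulin tyrosine ligase-like protein (Ttll) or a cytosolic carboxypeptidase of the Agbl family, followed by its number. The rule used no measured value, and it took 37 of 26743 genes, comprising 19 tubulin, 13 Ttll and 5 Agbl genes. Total RNA depleted of ribosomal RNA was sequenced from whole testes of 3 WT males and 3 Trf2-/- males, with 1 library for each mouse. Trf2 is TBP-related factor 2, a relative of the TATA-binding protein with the gene symbol Tbpl1, and Trf2-/- males, in which this gene is inactivated, are sterile. The labels name neither a treatment nor a strain. At this age the first wave of germ cells is just reaching the round spermatid stage.

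Microtubules are polymers of paired alpha and beta tubulin. Each mouse isotype is made by its own gene, and the isotypes differ mainly in their acidic C-terminal tails, which carry most of the modifications. Gamma-tubulin nucleates microtubules, and delta- and epsilon-tubulin are centriole proteins. Ttll enzymes add glutamate or glycine side chains to the tails, and Agbl carboxypeptidases shorten or remove glutamate chains. In the male germ line these modifications are abundant on the axoneme, the microtubule core of the sperm flagellum, and on the manchette, a skirt of microtubules that shapes the nucleus of the elongating spermatid.

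The tails are shown first because the isotypes compared below differ there and because they are the substrate of the enzymes. The lines give the last 60 coding bases, stop codon included, read 5′ to 3′ on the coding strand from the NCBIM37 genome with GENCODE M1 transcripts. Capitals mark the codons for glutamate (GAA or GAG), the residue that accepts side chains.
Tuba3a, chr6:125228376-125228435, minus strand: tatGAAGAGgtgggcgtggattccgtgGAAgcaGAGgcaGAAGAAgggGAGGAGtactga
Tuba4a, chr1:75212197-75212256, minus strand: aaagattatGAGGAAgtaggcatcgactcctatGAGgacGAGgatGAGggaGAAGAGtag
Tubb4b, chr2:25077828-25077887, minus strand: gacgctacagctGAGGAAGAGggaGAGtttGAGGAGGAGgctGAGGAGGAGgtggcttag
Tubb5, chr17:35971927-35971986, minus strand: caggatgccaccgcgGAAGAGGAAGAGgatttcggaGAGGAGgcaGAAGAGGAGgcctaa
Tubb3, chr8:125945523-125945582, plus strand: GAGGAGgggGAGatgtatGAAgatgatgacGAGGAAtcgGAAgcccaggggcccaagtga
Among these 20 codons, glutamate took 8 in Tuba3a, 7 in Tuba4a, 10 in Tubb4b, 9 in Tubb5 and 7 in Tubb3. Tuba3b, at chr6:145569848-145569907 on the plus strand, had the same 60 bases as Tuba3a. Tuba3a and Tuba3b ended in the tyrosine codon tac, whereas Tuba4a ended in a glutamate codon. A terminal tyrosine is removed and put back in cells as a further modification.

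Sequencing placed 21582123 to 29859347 reads on genes in the WT libraries and 15187062 to 24530489 in the Trf2-/- libraries. Trf2-/- mouse 3 had the shallowest library and hence the widest counting error. Levels are given as CPM, the counts of a gene relative to its library's size as scaled by the TMM method. Tbpl1, the inactivated gene, had 308, 283 and 294 CPM in WT mice 1 to 3 and 62.9, 64.3 and 55.8 CPM in Trf2-/- mice 1 to 3, a log2 fold change of -2.27 (SE 0.06, adjusted p = 1.18e-06). All fold changes are Trf2-/- against WT, and all adjusted p-values are from edgeR's quasi-likelihood test with Benjamini-Hochberg adjustment over the 16924 genes tested. A gene was called when this value was under 0.05. Over the tested genes as a whole the log2 fold change had a median of 0.04. No source states that the 3 mice of a genotype came from separate litters, and the p-values measure the spread between these libraries.

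The low-count filter kept 31 of the 37 genes. Among these 31 genes, 14 (45.2%) were called lower in Trf2-/- testis, whereas 20.2% of all tested genes were. A further 6 (19.4%) were called higher, whereas 11.2% of all tested genes were, and 11 were not called. The higher count fell when single mice were left out, and the share over all genes fell too. Leaving out WT mouse 1, 2 or 3 gave 1, 3 and 3 higher (4.57%, 4.54% and 6.75% of all genes then tested). Leaving out Trf2-/- mouse 1, 2 or 3 gave 2, 3 and 5 higher (6.86%, 8.96% and 10.99%). None was called with a change of at least 2-fold in edgeR, in either direction. Over all tested genes, 4.3% were called lower and 0.609% higher by that limit. Of the 31 genes, 23 had an unadjusted p under 0.05 and again none of these changed 2-fold, and DESeq2's Wald test also called 0 at 2-fold in either direction. The decreases ran from -0.19 to -0.94 on the log2 scale. The median over the 31 genes was -0.09. WT and Trf2-/- mice did not overlap in 22 of the 31 genes (71.0%), and the same held for 49.2% of all tested genes. All 14 genes called lower and 5 of the 6 called higher were among those 22, the exception being Tubb2a.

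**Figure D1:**
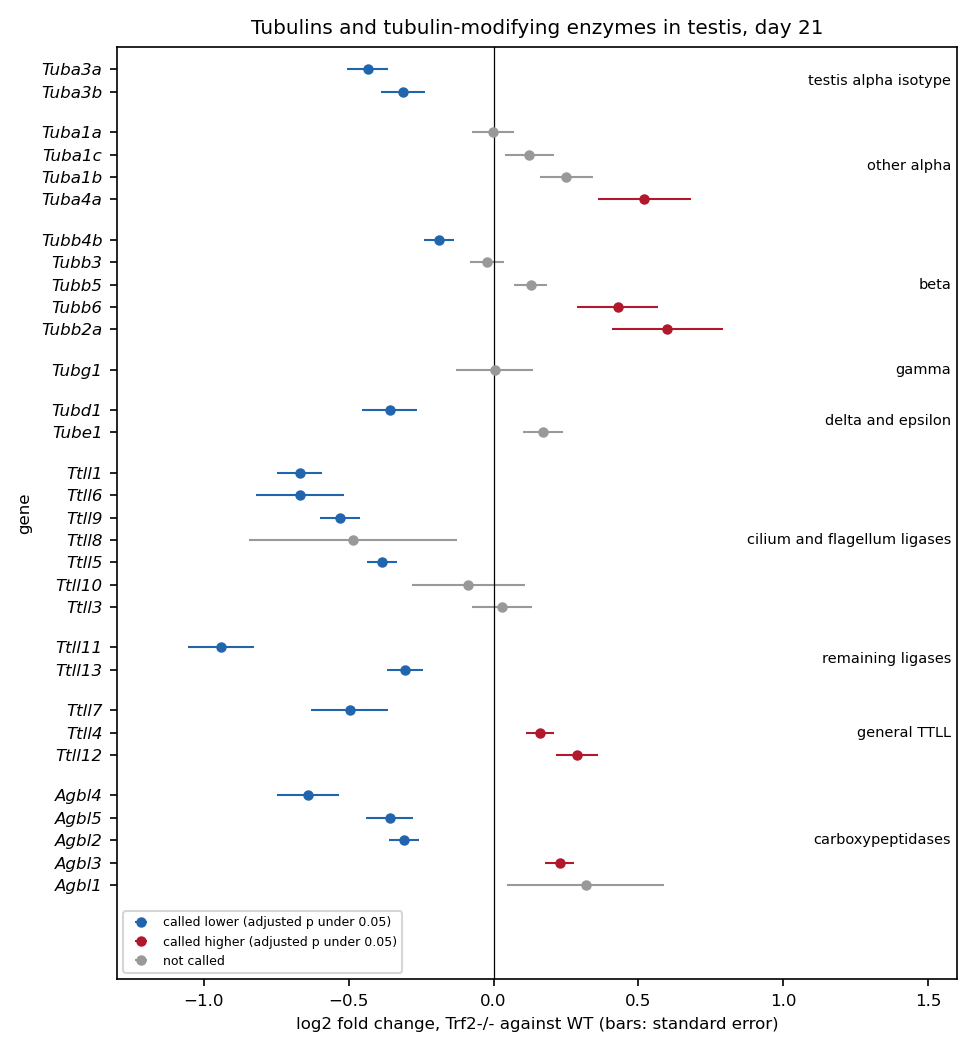
Log2 fold change (Trf2-/- against WT, x axis) of the 31 tested genes by role (y axis), from 3 mice of each genotype, with bars of 1 standard error. Blue points were called lower, red points higher and grey points not called. The Ttll11, Ttll1 and Ttll6 points lie farthest to the left, and Tubb2a and Tuba4a farthest to the right.

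The 6 genes below the filter were Tuba8, Tubb1, Tubb2b, Tubb4a, Tubg2 and Ttll2. None of them exceeded 13 counts in any library. Tuba8 had 8, 10 and 8 counts in WT and 2, 2 and 9 in Trf2-/- mice, Tubb4a had 1, 3 and 2 against 0, 1 and 3, and Ttll2 had 2, 1 and 1 against 0, 4 and 0. Tubb2b had 1, 8 and 2 counts in WT and 13, 5 and 9 in Trf2-/- mice, with the groups overlapping. Tubb2b entered the test without WT mouse 2, and was then called higher (log2 fold change 2.69, adjusted p = 0.0406). These counts lie near the floor of 3 counts, which corresponds to 0.105 to 0.190 CPM.

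Tuba3a and Tuba3b, the alpha isotypes made in the testis, were by far the most abundant of the 37 genes and both fell in Trf2-/- testis. Tuba3a measured 873, 866 and 860 CPM in WT mice 1 to 3 and 642, 709 and 572 CPM in Trf2-/- mice 1 to 3. The WT mice lay within a narrow band, and every Trf2-/- mouse lay below it, with mouse 3 the lowest. The log2 fold change was -0.43 (SE 0.07, adjusted p = 0.00227). Tuba3b measured 1278, 1243 and 1226 CPM in WT and 982, 1131 and 902 CPM in Trf2-/- mice, again without overlap and with mouse 3 the lowest. Its log2 fold change was -0.31 (SE 0.08, adjusted p = 0.0140). The Tuba3b call was lost without WT mouse 1 (adjusted p = 0.0545) or without Trf2-/- mouse 1 (adjusted p = 0.0609), at log2 fold changes of -0.30 and -0.31.

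Both genes lie on chromosome 6, Tuba3a at chr6:125228292-125236060 and Tuba3b at chr6:145564277-145569999 (NCBIM37). Their coding sequences have 1353 bases each and differ at 41 of them, so reads of 50 bases cannot always be assigned to a single one of the pair. Of the 50-base windows in the exons of Tuba3a, 62.1% occurred once in the genome (785 of 1264), most of the others being shared with Tuba3b. In Tuba3b 67.4% of windows occurred once. The ratio of Tuba3a to Tuba3b counts was 0.683, 0.697 and 0.701 in WT mice and 0.654, 0.627 and 0.635 in Trf2-/- mice. The ratio was thus lower in each Trf2-/- mouse than in any WT mouse. How the counter treated reads that match both genes is not given in the sources used here. Summed as 1 feature, the pair remained called lower.

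The upstream sequences of this pair of paralogs are printed because both genes fell. They are the 150 bases before the start in RefSeq (build GRCm38.p6, not the build of the counts), in lower case with each CCAAT in capitals.
Tuba3a, chr6:125286082-125286231, minus strand: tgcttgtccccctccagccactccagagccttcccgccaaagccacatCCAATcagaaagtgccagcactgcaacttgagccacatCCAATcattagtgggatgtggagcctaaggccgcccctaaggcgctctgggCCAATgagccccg
Tuba3b, chr6:145615813-145615962, plus strand: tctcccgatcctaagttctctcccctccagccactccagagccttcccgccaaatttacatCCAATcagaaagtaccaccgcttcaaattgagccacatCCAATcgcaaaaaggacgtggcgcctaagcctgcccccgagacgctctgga
CCAAT stood 102, 64 and 13 bases before the start in Tuba3a and 89 and 51 bases before it in Tuba3b. The windows are offset, since the stretch they share lies nearer to the annotated start in Tuba3b. The bases of Tuba3b matching the Tuba3a site 13 bases before its start would fall beyond the printed window. They were not searched, so the counts of 3 and 2 cannot show that Tuba3b lacks a site. Searched on both strands, CCAAT was present in 24.5% of 32851 upstream windows of this length, at least 2 times in 6.02%, and the letters TATAAA were present in 7.57%. Windows were found for 32 of the 37 genes, 37 windows in all. CCAAT was present in 12 of these windows (11 genes) and TATAAA in 2 (2 genes). Neither Tuba3a nor Tuba3b had TATAAA there.

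Of the 4 other alpha isotypes that were tested, 1 was called higher (11.2% of all tested genes) and 3 were not called. Tuba4a, whose tail ends without tyrosine, measured 4.64, 6.78 and 6.38 CPM in WT and 8.21, 7.80 and 9.55 CPM in Trf2-/- mice, every Trf2-/- mouse being above the WT mice (log2 fold change 0.52, SE 0.16, adjusted p = 0.0382). Its call was lost without any single mouse other than WT mouse 2, with adjusted p between 0.0558 (without Trf2-/- mouse 2) and 0.109 (without WT mouse 1, log2 fold change 0.36). Tuba4a overlaps Stk16 on the opposite strand. Tuba1a, the alpha isotype best known from neurons, measured 67.9, 81.0 and 74.4 CPM in WT and 69.6, 78.0 and 75.4 CPM in Trf2-/- mice, with the groups overlapping (adjusted p = 0.983). Tuba1b, a general isotype, measured 13.6, 12.7 and 14.97 against 15.99, 17.2 and 15.8 CPM, and Tuba1c 14.5, 13.2 and 15.1 against 15.8, 15.6 and 15.2 CPM. Neither pair of groups overlapped, and neither passed the test (adjusted p = 0.0670 and 0.293). With library sizes unscaled Tuba1b was called higher (adjusted p = 0.0170).

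Few reads of Tuba1a, Tuba1b and Tuba1c can be assigned to a single gene, with 26.7% (388 of 1451), 242 of 1728 and 35.7% (636 of 1781) of their windows found once in the genome. Tuba1a and Tuba1b have coding sequences of 1356 bases that differ at 23. Their levels and their split are therefore uncertain.

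**Figure D2:**
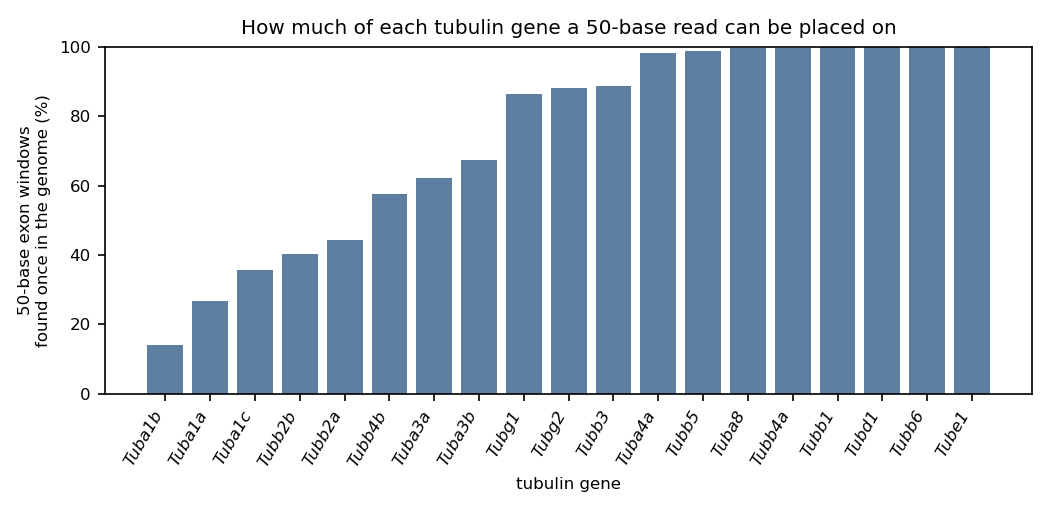
Share of the 50-base windows in the exons of each of the 19 tubulin genes (x axis) that occurs once in the NCBIM37 genome (y axis, %). Tuba1b (242 of 1728 windows) and Tuba1a (26.7%) are lowest, Tubb4b (57.7%), Tuba3a (62.1%) and Tuba3b (67.4%) lie between, and Tuba4a (98.3%) and the genes to its right lie above them.

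Among the beta isotypes the most abundant fell slightly, and 2 low ones rose. Tubb4b, the beta isotype of cilia and flagella, measured 496, 504 and 498 CPM in WT and 427, 468 and 420 CPM in Trf2-/- mice. All Trf2-/- mice were below the WT mice (log2 fold change -0.19, SE 0.05, adjusted p = 0.0214). This call was lost without WT mouse 1, 2 or 3 (adjusted p = 0.0586, 0.0784 and 0.0570), without Trf2-/- mouse 1 (adjusted p = 0.0915), and with library sizes unscaled (adjusted p = 0.150, log2 fold change -0.09). Tubb4b has 57.7% of its windows found once in the genome and overlaps Fam166a on the opposite strand at chr2:25077680-25080222.

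Tubb5, a widely expressed beta isotype, measured 248.7, 257 and 276 CPM in WT and 272, 281 and 301 CPM in Trf2-/- mice. The groups overlapped and the gene was not called (adjusted p = 0.114), although it was with library sizes unscaled (adjusted p = 0.0162). Tubb3, known as the neuronal isotype, measured 95.9, 90.5 and 95.2 CPM in WT and 86.1, 93.9 and 97.7 CPM in Trf2-/- mice, with the groups overlapping and no call (adjusted p = 0.8004). Tubb3 overlaps Gm20388 on its own strand, and 88.8% of its windows were found once in the genome. Tubb6 rose from 9.58, 9.92 and 13.7 CPM to 15.5, 15.1 and 13.8 CPM, and Trf2-/- mouse 3 was barely above WT mouse 3 (log2 fold change 0.43, SE 0.14, adjusted p = 0.0464). Tubb2a rose from 2.47, 2.76 and 3.55 CPM to 4.84, 4.72 and 3.54 CPM, with Trf2-/- mouse 3 inside the WT range (log2 fold change 0.60, SE 0.19, adjusted p = 0.0413). Both of these calls were lost without WT mouse 1 (adjusted p = 0.162 and 0.146), WT mouse 2 (0.162 and 0.129), Trf2-/- mouse 1 (0.128 and 0.129) or Trf2-/- mouse 2 (0.115 and 0.119). The Tubb6 call was also lost with DESeq2 size factors (adjusted p = 0.0514) or a minimum of 10 counts in every library (0.0569), and the Tubb2a call in DESeq2 (0.0558). Tubb2a has 44.2% of windows found once in the genome.

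The make-up of the tubulin mRNA pool was computed for each mouse as each gene's share of its family's counts per kilobase of gene length. These shares are a description and were not tested. Tuba3a and Tuba3b together held 95.7%, 95.03% and 95.1% of the alpha pool in WT mice and 93.9%, 94.1% and 92.9% in Trf2-/- mice. Every Trf2-/- mouse was below the WT mice, by an amount small beside the share itself. The mean was 95.3% ± 0.35 (SD, n = 3) in WT and 93.7% ± 0.64 in Trf2-/- testis. The summed CPM of the 7 alpha genes was 2251, 2223 and 2198 in WT and 1733, 1959 and 1591 in Trf2-/- mice, so that the alpha pool itself was smaller in each Trf2-/- mouse.

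In the beta pool Tubb4b held 62.4%, 62.8% and 60.6% in WT mice and 57.6%, 58.7% and 54.9% in Trf2-/- mice. Tubb5 held 22.2%, 22.7% and 23.8% in WT and 26%, 25.04% and 27.9% in Trf2-/- mice. The groups did not overlap for either gene. Scaled by windows found once in the genome, a choice made after seeing the data, Tubb5 held 13.7% ± 0.57 in WT and 16.2% ± 1.10 in Trf2-/- testis. The ratio of Tubb4b to Tubb5 counts was 1.996, 1.97 and 1.81 in WT and 1.57, 1.66 and 1.39 in Trf2-/- mice, which compares both genes within a library and does not depend on its scaling. Tubb3 held 13.0% ± 0.45 and 13.5% ± 0.70. The summed CPM of the 8 beta genes was 853, 865 and 886 in WT and 806, 863 and 837 in Trf2-/- mice, with the groups overlapping.

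**Figure D3:**
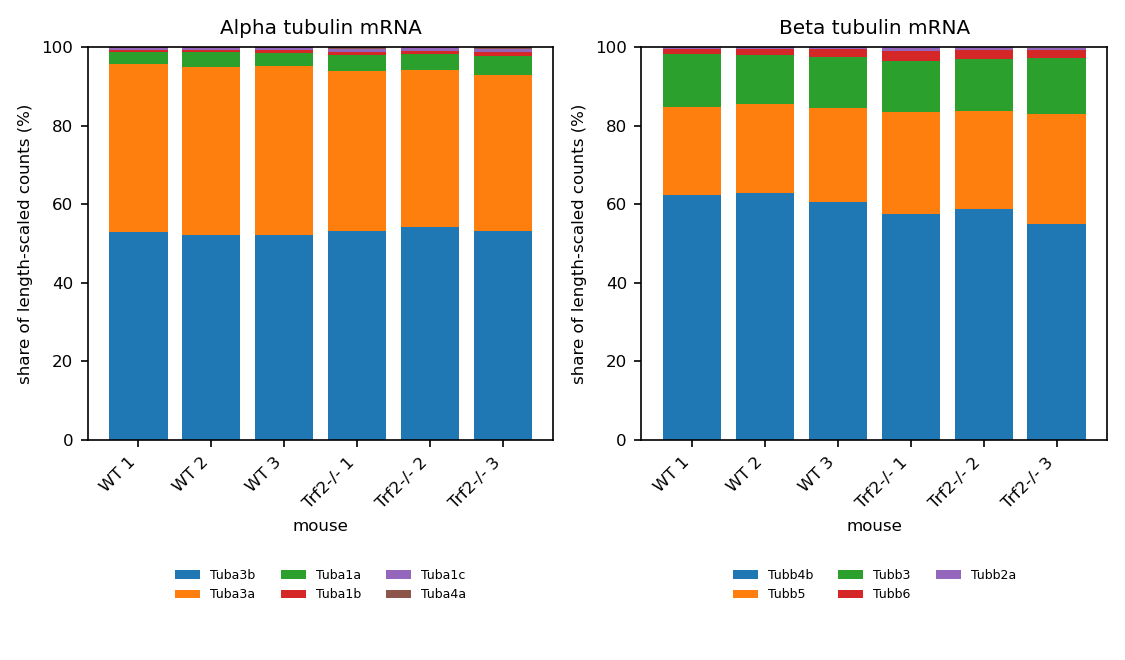
Share of each isotype in the alpha (left) and beta (right) tubulin mRNA of each of the 6 mice (x axis), in percent of counts per kilobase (y axis). Tuba3b and Tuba3a fill 92.9% to 95.7% of every alpha bar, and the Tubb4b segment is shorter in the 3 Trf2-/- mice (54.9% to 58.7%) than in the 3 WT mice (60.6% to 62.8%).

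Of the 3 tested genes for gamma-, delta- and epsilon-tubulin 1 was called, and it was lower, as were 20.2% of all tested genes. Tubd1, for delta-tubulin, measured 34.9, 31.6 and 32.3 CPM in WT and 25.2, 22.8 and 29.5 CPM in Trf2-/- mice. All WT mice were higher (log2 fold change -0.36, SE 0.10, adjusted p = 0.0202). The Tubd1 call was lost without WT mouse 1 (adjusted p = 0.0826) or WT mouse 3 (adjusted p = 0.0510), and with library sizes unscaled (adjusted p = 0.0557). Tube1, for epsilon-tubulin, measured 16.9, 17.3 and 16.9 against 19.3, 19.0 and 19.4 CPM, without overlap and without a call (adjusted p = 0.0897). Tube1 overlaps Wisp3 on the opposite strand, and it was called higher with library sizes unscaled (adjusted p = 0.0182). Tubg1, the main gamma-tubulin gene, measured 12.5, 15.4 and 15.5 against 13.1, 13.4 and 17.2 CPM (adjusted p = 0.986).

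The Ttll ligases carried the largest decreases of the 37 genes. Of 12 tested, 7 were called lower and 2 higher (20.2% and 11.2% over all tested genes), with a median log2 fold change of -0.44. All 12 had at least 97.9% of windows found once in the genome, so that few of their reads can be shared with paralogs. Those grouped here as enzymes of cilia and the flagellum, Ttll1, Ttll3, Ttll5, Ttll6, Ttll8, Ttll9 and Ttll10, gave 4 lower, 0 higher and 3 not called in edgeR, with a median of -0.48. None of the 7 was higher at an unadjusted p under 0.05 or in DESeq2. With 11.2% of all tested genes called higher, 0 among 7 genes lies near that share.

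Ttll1 encodes the catalytic subunit of a polyglutamylase complex needed for a normal sperm flagellum and lies at chr15:83314202-83341323. It measured 22.3, 21.0 and 20.7 CPM in WT and 13.7, 12.9 and 13.7 CPM in Trf2-/- mice. The groups were far apart and the Trf2-/- mice close to one another (log2 fold change -0.67, SE 0.08, adjusted p = 0.000594). Ttll9, whose product is needed for flagellar beating, measured 24.4, 22.9 and 24.4 CPM in WT and 16.1, 16.9 and 16.6 CPM in Trf2-/- mice. Here too the Trf2-/- mice were nearly equal (log2 fold change -0.53, SE 0.07, adjusted p = 0.000951). Ttll9 overlaps the transcript Gm14199 on the opposite strand.

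Ttll5 starts glutamate chains, mainly on alpha-tubulin, and is known to be required for male fertility. It measured 332, 337 and 344 CPM in WT and 265, 269 and 241 CPM in Trf2-/- mice, a decrease seen in every mouse (log2 fold change -0.39, SE 0.05, adjusted p = 0.00104). Ttll5 overlaps Gm17691 on the opposite strand, and it is the only one of the 37 genes whose deposited coordinates differ from GENCODE M1. Ttll6, which lengthens glutamate chains and lies at chr11:95995100-96026765, measured 69.7, 57.2 and 64.4 CPM in WT and 43.8, 46.6 and 29.3 CPM in Trf2-/- mice. Trf2-/- mouse 3 was well below the other two Trf2-/- mice (log2 fold change -0.67, SE 0.15, adjusted p = 0.0102).

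The genes for glycine ligases were low and did not differ beyond their spread. Ttll3 and Ttll8 start glycine chains and Ttll10 lengthens them. Ttll3 measured 12.7, 11.0 and 12.6 against 13.4, 11.8 and 11.8 CPM (adjusted p = 0.851), and it overlaps Arpc4 on its own strand. Ttll10 measured 3.38, 2.34 and 3.26 against 2.46, 3.05 and 2.97 CPM (adjusted p = 0.758). Ttll8 had 13, 13 and 15 counts in WT and 7, 12 and 6 in Trf2-/- libraries, a log2 fold change of -0.48 with a standard error of 0.36 (adjusted p = 0.327), so that a decrease of the size seen in Ttll1 was not detectable in Ttll8 at this depth.

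Ttll11 and Ttll13 are the remaining tested ligases, both known as enzymes that lengthen glutamate chains. Ttll11 showed the largest decrease of the 37 genes, from 15.8, 13.8 and 13.4 CPM in WT to 7.14, 8.28 and 6.95 CPM in Trf2-/- mice. The highest Trf2-/- mouse was well below the lowest WT mouse (log2 fold change -0.94, SE 0.11, adjusted p = 0.000712). Without Trf2-/- mouse 2 it passed the 2-fold limit, at a log2 fold change of -1.04. Ttll11 lies at chr2:35606761-35835433 (NCBIM37) and overlaps 9030204H09Rik on the opposite strand. Ttll13 measured 177, 170 and 168 CPM in WT and 143, 147 and 126 CPM in Trf2-/- mice, a smaller decrease without overlap (log2 fold change -0.31, SE 0.06, adjusted p = 0.00557).

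Of the 3 Ttll genes grouped as general, Ttll4, Ttll7 and Ttll12, 1 was called lower and 2 higher (20.2% and 11.2% over all tested genes). Ttll4, which starts chains on beta-tubulin and on histone chaperones, measured 231, 221 and 225 CPM in WT and 246, 245 and 265 CPM in Trf2-/- mice. Every Trf2-/- mouse was above every WT mouse by a small margin (log2 fold change 0.16, SE 0.05, adjusted p = 0.0321). Ttll12, a family member for which no glutamylase activity is established, measured 35.2, 34.7 and 34.9 CPM in WT and 41.3, 39.7 and 47.3 CPM in Trf2-/- mice, again without overlap (log2 fold change 0.29, SE 0.07, adjusted p = 0.0166). Ttll7, a beta-tubulin glutamylase best known from neurons, measured 9.69, 8.85 and 9.60 CPM in WT and 7.58, 6.69 and 5.499 CPM in Trf2-/- mice. All Trf2-/- mice were lower (log2 fold change -0.50, SE 0.13, adjusted p = 0.0208), the direction of the 4 flagellar ligases that were called.

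All 3 of these calls were lost when some single libraries were left out, which leaves 2 mice in a group. Their direction held in every alternative. The log2 fold change ran from 0.13 to 0.26 for Ttll4, 0.22 to 0.38 for Ttll12 and -0.62 to -0.39 for Ttll7. Ttll4 lost its call without WT mouse 1, 2 or 3 (adjusted p = 0.0636, 0.127 and 0.0895) or Trf2-/- mouse 1 (0.0644). Ttll12 lost it without WT mouse 1, 2 or 3 (adjusted p = 0.0534, 0.0624 and 0.0507), and Ttll7 without WT mouse 1 or 3 (0.0722 and 0.0616) or Trf2-/- mouse 2 (0.0510). The ratio of Ttll5 to Ttll4 counts, both starters of chains, was 1.44, 1.53 and 1.53 in WT and 1.08, 1.10 and 0.907 in Trf2-/- mice. The ratio of Ttll6 to Ttll4 counts was 0.302, 0.259 and 0.287 in WT and 0.178, 0.190 and 0.110 in Trf2-/- mice. Neither ratio overlapped between the genotypes, and neither depends on library scaling.

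**Figure D4:**
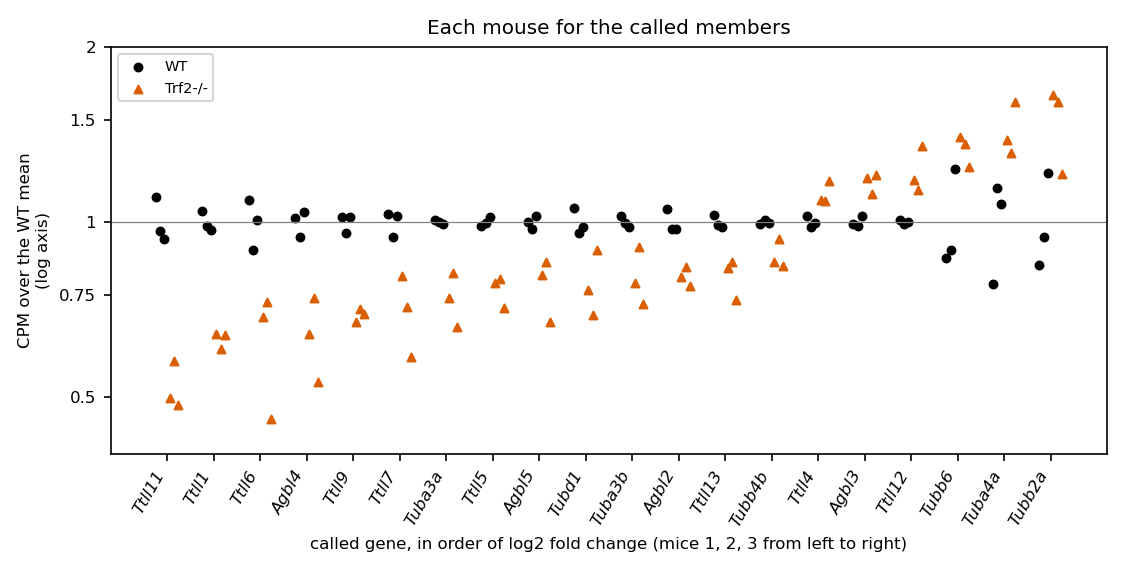
CPM of each mouse divided by the WT mean (y axis, log scale) for the 20 called genes in order of fold change (x axis), with circles for the 3 WT and triangles for the 3 Trf2-/- mice. The triangles lie below the circles in the 14 genes on the left, and Trf2-/- mouse 3, the last of each set of triangles, is lowest of all mice in 11 of these.

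The carboxypeptidases that shorten glutamate chains gave 3 genes lower (20.2% of all tested genes), 1 higher (11.2%) and 1 not called. Agbl5, which removes the glutamate at the branch point of a chain, was the most abundant of them. It measured 403, 391 and 412 CPM in WT and 326, 343 and 271 CPM in Trf2-/- mice, without overlap (log2 fold change -0.36, SE 0.08, adjusted p = 0.00951). It overlaps Ost4 on the opposite strand. Agbl4 shortens chains and fell most, from 54.5, 50.6 and 56.0 CPM to 34.5, 39.8 and 28.5 CPM (log2 fold change -0.64, SE 0.11, adjusted p = 0.00241). Agbl4 overlaps Bend5 on its own strand. Agbl2, another chain-shortening enzyme, fell from 210, 194 and 194 CPM to 161, 167 and 155 CPM (log2 fold change -0.31, SE 0.05, adjusted p = 0.00235).

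Agbl3 moved the other way, from 81.5, 80.7 and 84.0 CPM in WT to 97.7, 91.8 and 99.0 CPM in Trf2-/- mice. All Trf2-/- mice were higher (log2 fold change 0.23, SE 0.05, adjusted p = 0.00854). Agbl3 overlaps Gm13864 on its own strand and Gm13862 and Gm13863 on the opposite strand. Agbl1 had 24 to 62 counts in all libraries and was not called (adjusted p = 0.394). Ligases that add and carboxypeptidases that remove glutamate were thus both found among the genes called lower.

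By level per length, in WT mean CPM per kilobase, the order of the tubulins was Tuba3b at 704 ± 14.8 (SD, n = 3), Tuba3a at 574 ± 4.24, Tubb4b at 239 ± 2.03, Tubb5 at 88.4 ± 4.71, Tubb3 at 50.3 ± 1.57 and Tuba1a at 45.2 ± 3.96. Tubb3 and Tuba1a were closest together and differed by little more than their spread. This order depends on the shared windows, since per kilobase of windows found once Tuba1a stood at 191.8, above Tubb5 (82.9) and Tubb3 (63.2), while Tuba3b (1211), Tuba3a (1103) and Tubb4b (446) stayed on top. The highest enzyme genes on the same scale were Agbl5 at 72.2 ± 1.91, Ttll13 at 50.7 ± 1.31, Agbl2 at 30.0 ± 1.40, Ttll4 at 27.2 ± 0.62 and Ttll5 at 24.3 ± 0.42. Ttll1 (7.32 ± 0.30) and Ttll11 (3.57 ± 0.32) were well below these. The order of the enzymes depends on the length used. In GENCODE M1 the exons covered 10323 bases for Ttll5, 9594 for Ttll4 and 7053 for Agbl5. Their deposited lengths were 13874, 8282 and 5564 bases. In Trf2-/- testis Ttll4 (30.4 ± 1.39) stood above Agbl2 (24.2 ± 0.90), in contrast to WT.

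The genes called lower did not fall equally in the 3 Trf2-/- mice. Over the 14 genes, the median log2 ratio to the WT mean was -0.37, -0.38 and -0.55 in Trf2-/- mice 1, 2 and 3. In 11 of the 14, mouse 3 had the lowest value of all 6 mice. Markers of late germ cells were lower in Trf2-/- testis too, and mouse 3 had the lowest sum for round spermatids and pachytene spermatocytes but not for elongating spermatids. The summed CPM of 8 round spermatid markers was 78.4 to 82.2 in WT mice and 50.4, 52.0 and 36.4 in Trf2-/- mice 1 to 3. Most of this sum was Acr, at 54.5 to 59.7 CPM in WT and 33.5, 36.2 and 23.4 CPM in Trf2-/- mice. Of the 8, 6 were called lower, beside 20.2% of all tested genes. Spaca1 and Spata18 were not called, at log2 fold changes of -0.22 and 0.16. Acrv1 and Catsper1, with only 16 to 41 counts in WT libraries, had 0 counts in mouse 3. The sum of 6 pachytene spermatocyte markers was 5233 to 5673 in WT and 3941, 4163 and 3298 in Trf2-/- mice, with all 6 called lower. The 4 measured elongating spermatid markers summed to 3.97 to 4.41 CPM in WT and 0.794, 1.24 and 0.885 CPM in Trf2-/- mice 1 to 3, and the defining genes Tnp1 and Prm2 were at or near 0 in every library of both genotypes.

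Markers of earlier and somatic cells mostly moved little or upward, and 11.2% of all tested genes were called higher. Of 5 early spermatocyte markers 2 were called higher and none lower in edgeR (sum 1206 to 1232 CPM in WT, 1377 to 1465 in Trf2-/- mice). Of 6 Sertoli markers 3 were called higher (1664 to 1806 against 1941 to 2147 CPM), as were 3 of 5 macrophage markers (142 to 165 against 160 to 319 CPM), 1 of 6 spermatogonial (209 to 229 against 214 to 267 CPM), 1 of 6 Leydig (181 to 360 against 185 to 326 CPM) and 1 of 5 endothelial markers (40.0 to 43.0 against 47.7 to 61.8 CPM). None of 4 peritubular markers was called (282 to 361 against 351 to 403 CPM). The Leydig markers were split, 4 upward and 2 downward. Among them Star ran from 18.2 to 92.1 CPM in WT and from 20.35 to 102 CPM in Trf2-/- mice. The part of these shifts in the tubulin results was not tested. In whole testis fewer cells of a type and less RNA per cell cannot be told apart.

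The other genes of the tubulin pathway, listed by function, were examined beside the named families. The 49 names searched included older and newer symbols of the same gene. Svbp and Tpgs1, the latter listed for the Ttll1 complex, were not found. In all, 43 names were found and 42 tested. Of these, 21 were called lower and 4 higher (20.2% and 11.2% over all tested genes), with a median log2 fold change of -0.17. The polyglutamylase complex of Ttll1 gave 3 of 3 lower. Its subunit gene Lrrc49 measured 110, 105 and 104 CPM in WT and 73.0, 77.6 and 73.6 CPM in Trf2-/- mice (log2 fold change -0.50, SE 0.05, adjusted p = 0.000402). 5730494M16Rik, now named Tpgs2, fell by 0.63 on the log2 scale (adjusted p = 0.000296) and Nicn1 by 0.36 (adjusted p = 0.0156). The catalytic subunit gene Ttll1, described above, fell by 0.67, so that all 4 measured genes of this enzyme were lower.

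Among manchette proteins 9 of 10 were called lower (20.2% of all tested genes), with a median of -0.43. Rimbp3, needed for manchette organisation, fell most, from 419, 387 and 386 CPM in WT to 113, 131 and 79.7 CPM in Trf2-/- mice. Its fold change was larger in size than that of any tubulin gene (log2 fold change -1.88, SE 0.15, adjusted p = 0.000197). Spef1, for a protein of the manchette and axoneme, fell by 0.64 on the log2 scale (adjusted p = 0.000458), within the range of the Ttll genes. Clip1, a plus-end tracking protein of general use, was the gene not called (log2 fold change 0.02, adjusted p = 0.8004).

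Of 7 tested modifying enzymes outside the name rule 3 were called lower (20.2% of all tested genes). Vash2, which removes the terminal tyrosine of alpha-tubulin, fell from 3.83, 3.18 and 3.50 CPM to 0.913, 0.729 and 0.379 CPM. This was the largest decrease among the genes of these lists and the named families (log2 fold change -2.31, SE 0.26, adjusted p = 0.000534). The related gene Vash1 was not called, at 6.795, 5.362 and 6.333 against 5.555, 6.518 and 6.321 CPM (adjusted p = 0.959). Ttl, the ligase that puts the tyrosine back, measured 5.401, 6.28 and 5.997 against 5.60, 5.92 and 6.76 CPM and was not called (adjusted p = 0.830). Agtpbp1, the founding carboxypeptidase of the Agbl family, measured 262, 265 and 260 CPM in WT and 225, 227 and 208 CPM in Trf2-/- mice (log2 fold change -0.25, SE 0.05, adjusted p = 0.00420).

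Severing enzymes gave 3 lower and 1 higher of 7 (20.2% and 11.2% over all tested genes). Katnal1, a katanin subunit known to be needed in Sertoli cells, fell by 0.83 on the log2 scale (adjusted p = 0.000329) and Katnal2, a relative needed in spermatids, by 0.70 (adjusted p = 0.000561). Fign, for fidgetin, rose from 0.488, 0.613 and 0.816 CPM to 1.47, 1.07 and 1.01 CPM (log2 fold change 0.93, SE 0.28, adjusted p = 0.0356). The Fign call was lost without WT mouse 1 or 2 (adjusted p = 0.139 and 0.108), without Trf2-/- mouse 1 or 2 (0.134 and 0.0589), and in DESeq2 (0.119). The gamma-tubulin ring complex gave 2 lower and 2 higher of 8. Its small subunit gene Mzt2 fell from 56.2, 49.7 and 55.1 CPM to 26.6, 30.3 and 17.5 CPM (log2 fold change -1.10, SE 0.16, adjusted p = 0.00134), and Trf2-/- mouse 3 was again lowest. Tubulin folding cofactors gave 1 lower and 1 higher of 7, with a median of -0.04. The lower counts of the ring complex and the cofactors lie near the share over all tested genes.

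**Figure D5:**
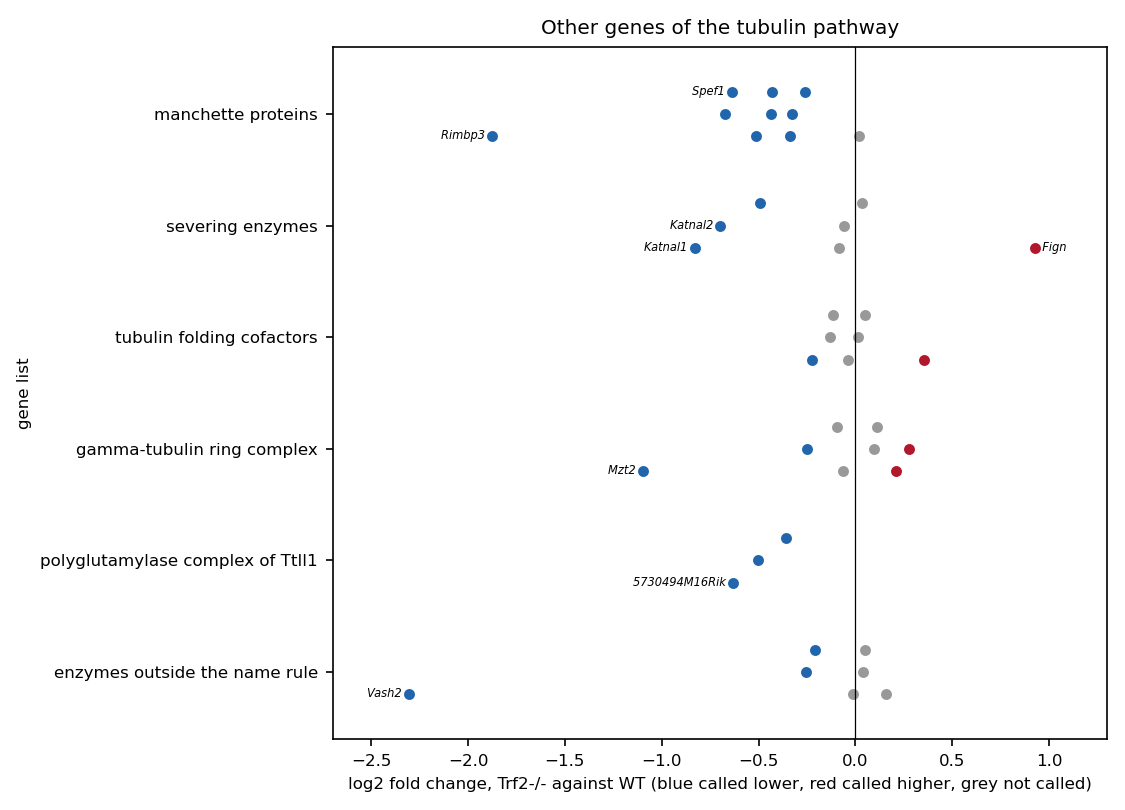
Log2 fold change (Trf2-/- against WT, x axis) of the 42 tested genes of the tubulin pathway outside the named families, by list (y axis), from 3 mice of each genotype. Blue marks genes called lower, red higher and grey not called, and the genes named in the text with a call and a change of at least 1.5-fold carry their names. Vash2 and Rimbp3 lie farthest left, and the manchette list has 9 of its 10 points in blue.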

How the data were processed

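Total RNA libraries (stranded kit, single-end reads of 50 bases) were made from testes of 3 WT and 3 Trf2-/- mice. The authors aligned the reads to NCBIM37 (mm9) and deposited raw read counts per gene, 1 column for each mouse. The submitters' processing notes name CASAVA 1.8.2, TopHat2 2.0.10, Bowtie2 2.1.0, HTSeq 0.5.4p3 and DESeq2 1.0.19. The counting mode, its use of strand and its treatment of reads shared between paralogs are not given in the sources used here. The other 12 columns, of normalized values, were not used.

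Counts of all 26743 genes were tested with edgeR 4.0.16 (R 4.3.3: filterByExpr, TMM, glmQLFit, glmQLFTest, genotype only), with Benjamini-Hochberg adjustment over the 16924 genes kept. The standard error was derived from the log2 fold change and its F statistic. An exact permutation test of 3 against 3 cannot go below p = 0.1 and was not used. CPM values use TMM-scaled library sizes, and levels per kilobase use the deposited gene length. The fit was tested on simulated data. No 2 libraries agreed within sampling noise. Every 50-base exon window was looked up on both strands of the NCBIM37 genome. Alternatives were the scaling, DESeq2 1.42.0, the filter, the p limit, summed paralogs, a replicate block and each mouse left out.

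Members and gene lists were chosen with earlier results of these data known. Every member is accounted for, with values per mouse for called genes and for the isotypes and ligases compared. Of the other pathway genes, those past 1.5-fold and the partners of members are named, apart from a gene that is not reported here. Clip1, Vash1 and the marker genes were named after their values were seen. Floors cover counting error only, whereas standard errors and SDs include the spread between libraries.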

Additional observations from a re-analysis of the deposited data

How the results depend on the processing

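Of the results for single genes, 474 under an alternative kept their direction and side of the threshold, 45 lost their call, 3 gained it and 19 changed sign. Under the main settings 14 members were lower and 6 higher. With library sizes unscaled, where the median of all genes moved from 0.04 to 0.13, members gave 12 lower and 9 higher and the other pathway genes 17 lower and 8 higher in place of 21 and 4, beside 15.9% lower and 25.2% higher over all genes. An adjusted p limit of 0.01 left 9 members lower, 1 higher (13.8% and 2.84% over all genes) and, in edgeR, 0 other pathway genes higher (5 at an unadjusted p under 0.05). Without 1 mouse, members gave 10 to 14 lower and 1 to 5 higher, and 0 to 1 in either direction at 2-fold, Ttll11 (without Trf2-/- mouse 2) and Tubb2b (without WT mouse 2, from at most 13 counts). The other pathway genes gave 16 to 21 lower and 1 to 4 higher, and all tested genes 2626 to 3332 lower and 780 to 1903 higher. DESeq2 gave 14 lower and 5 higher. The same replicate numbers did not vary together (correlations -0.10, -0.03 and -0.10). Deviations within groups of 3 mice cannot settle whether the numbers pair mice. A replicate block gave 14 lower and 3 higher members (without Ttll4, Tubb2a and Tubb6) and 2 other pathway genes higher. Of the members with at least 95% unique windows (22 of 31 tested), 11 were lower and 5 higher, a choice made after seeing the data.

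Without division by length Tubb4b held 57.6% (WT) and 52.5% (Trf2-/-) and Tubb5 30.0% and 34.1% of the beta pool. Scaled by windows found once, also chosen after seeing the data, Tubb4b held 73.8% and 69.7%, Tubb5 13.7% and 16.2%, and Tuba3a with Tuba3b 89.4% and 86.1%, and the cause was not tested. Genes that changed sign were not called under any of these settings. Ttll10 gave 0.008 and Tuba1a 0.092 and Tubb3 0.073 with library sizes unscaled. Tubg1 gave -0.002 with DESeq2 size factors, -0.001 in DESeq2 and -0.009 with at least 10 counts in every library. Tuba1a gave 0 without a filter and 0.052 with Tuba1a to Tuba1c summed. Leaving out each mouse in turn, Agbl1 ran from -0.065 to 0.517, Ttll10 from -0.241 to 0.015, Ttll3 from -0.053 to 0.067, Tuba1a from -0.067 to 0.061, Tubb3 from -0.054 to 0.013, Tubg1 from -0.117 to 0.058 and Ttl from -0.026 to 0.091. Leaving out 1 mouse leaves 2 in its group, and depth limits Ttll8, Agbl1 and the 6 genes below the filter.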
